A study of Mus musculus with 12 samples.

Results

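Fatty acid oxidation was examined through a list of 32 genes, of which 30 were found by symbol on a probe set that carries exactly 1 gene, among 19938 genes measured in the colon of 12 mice. Acsl1 had no probe set in the platform table used here, and Acsl3 lay only on a probe set shared by several genes, so neither was analysed here. The gene list was not chosen by a threshold on these values, but it was chosen with earlier results of these data known. To oxidize a fatty acid, cells activate it to acyl-CoA, pass long chains into mitochondria on carnitine, and shorten the chain in repeated rounds of dehydrogenation, hydration, a further dehydrogenation and thiolysis, with auxiliary enzymes for unsaturated chains and electron transfer proteins that feed the respiratory chain. Peroxisomes run a related pathway for very long and branched chains, and the nuclear receptor PPARα with its coactivator Ppargc1a switches on many of these genes. Oxidation of short-chain fatty acids made by bacteria is a main energy source of the colonocyte.

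All mice were male wild-type C57BL/6 animals, 7 weeks old at the start and 8 weeks and 3 days old at sacrifice on day 10, with 3 mice per group and 1 Affymetrix array per mouse. The control mice drank water throughout. The control+L-Arg mice drank water for 6 days and then 1% L-arginine (L-Arg), a semi-essential amino acid, for 4 days. The DSS mice drank 4% dextran sulfate sodium, a polysaccharide that injures the colonic epithelium, for 6 days and then water for 4 days, and the DSS+L-Arg mice drank the same DSS followed by 1% L-Arg for 4 days. By the general methods of the study a proximal and a distal piece of each colon were combined, so the arrays read whole colon tissue and not isolated colonocytes. The values are log2 signals, on which a difference of 1 is a doubling, and the number of mice limits their precision. In whole tissue, fewer cells of a type cannot be told apart from less RNA per cell.

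The labelled tissue was checked against 22 colonocyte and epithelial markers, none of which lay below the 30th percentile of all values in every array, and their summed level lay between 17.4 and 17.6 on the log2 scale in every array. Of these markers Car4, a carbonic anhydrase of the colonocyte surface, was the only one called in DSS against control (-0.58, SE 0.10, adjusted p = 0.0106 from limma). Other cell types moved with the groups. The summed level of 18 neutrophil markers was 10.3 to 11.1 in control, 10.4 to 10.9 in control+L-Arg, 12.9 to 14.6 in DSS and 11.1 to 11.3 in DSS+L-Arg, and that of 17 monocyte and macrophage markers was 11.1 to 11.3, 11.1 to 12.1, 12.4 to 13.4 and 11.4 to 11.7 in the same order. The summed level of 12 smooth muscle markers was 13.8 to 14.8 in control, 13.6 to 15.2 in control+L-Arg, 12.9 to 13.4 in DSS and 13.1 to 13.9 in DSS+L-Arg. That of 11 adipocyte markers, 3 of which lay below the 30th percentile in every array, was 11.3 to 12.2 in control, 11.4 to 12.5 in control+L-Arg, 10.8 to 11.3 in DSS and 11.4 to 11.6 in DSS+L-Arg. Arrays of the same group also differed in the posterior Hox genes, which mark position along the body axis, with summed levels of 9.71 to 12.1 in control and 9.61 to 12.1 in DSS+L-Arg.

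The first comparison asked how the colon 4 days after DSS differed from that of untreated mice. The gene for the dienoyl-CoA reductase Decr1 fell 1.63-fold and that for the dienoyl-CoA isomerase Ech1 fell 1.47-fold in DSS, while the long-chain acyl-CoA dehydrogenase Acadl rose 1.40-fold, and the other 27 genes did not pass an adjusted p of 0.05. These 3 calls are 2 of 30 lower and 1 of 30 higher, against 2.23% and 1.8% of all genes tested. The study called genes at a SAM p under 0.01 together with more than a 2-fold change. SAM was not run here, so these cut-offs were applied to the p-values from limma. By them 0 of the 30 genes passed in either direction, against 0.813% of all genes lower and 1.32% higher. Pdk4 fell 2.25-fold with a p of 0.0150 from limma, and its status under SAM is not known. By their means 25 of the 30 genes were lower in DSS, against 53.1% of all genes, and at an unadjusted p under 0.05, 11 were lower and 2 higher, against 11.6% and 7.96%. The median difference was -0.19 over the 30 genes and -0.01 over all genes tested. Beside these values, the smooth muscle markers had a median difference of -0.89 with 0 of 12 called and 12 of 12 below 0, the adipocyte markers -0.50 with 0 of 11 called and 11 of 11 below 0, the neutrophil markers 2.49 with 11 of 18 higher, the monocyte and macrophage markers 1.30 with 11 of 17 higher, and the posterior Hox genes -0.58 with 0 of 9 called. Their part in the lower means was not tested.

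**Figure D1:**
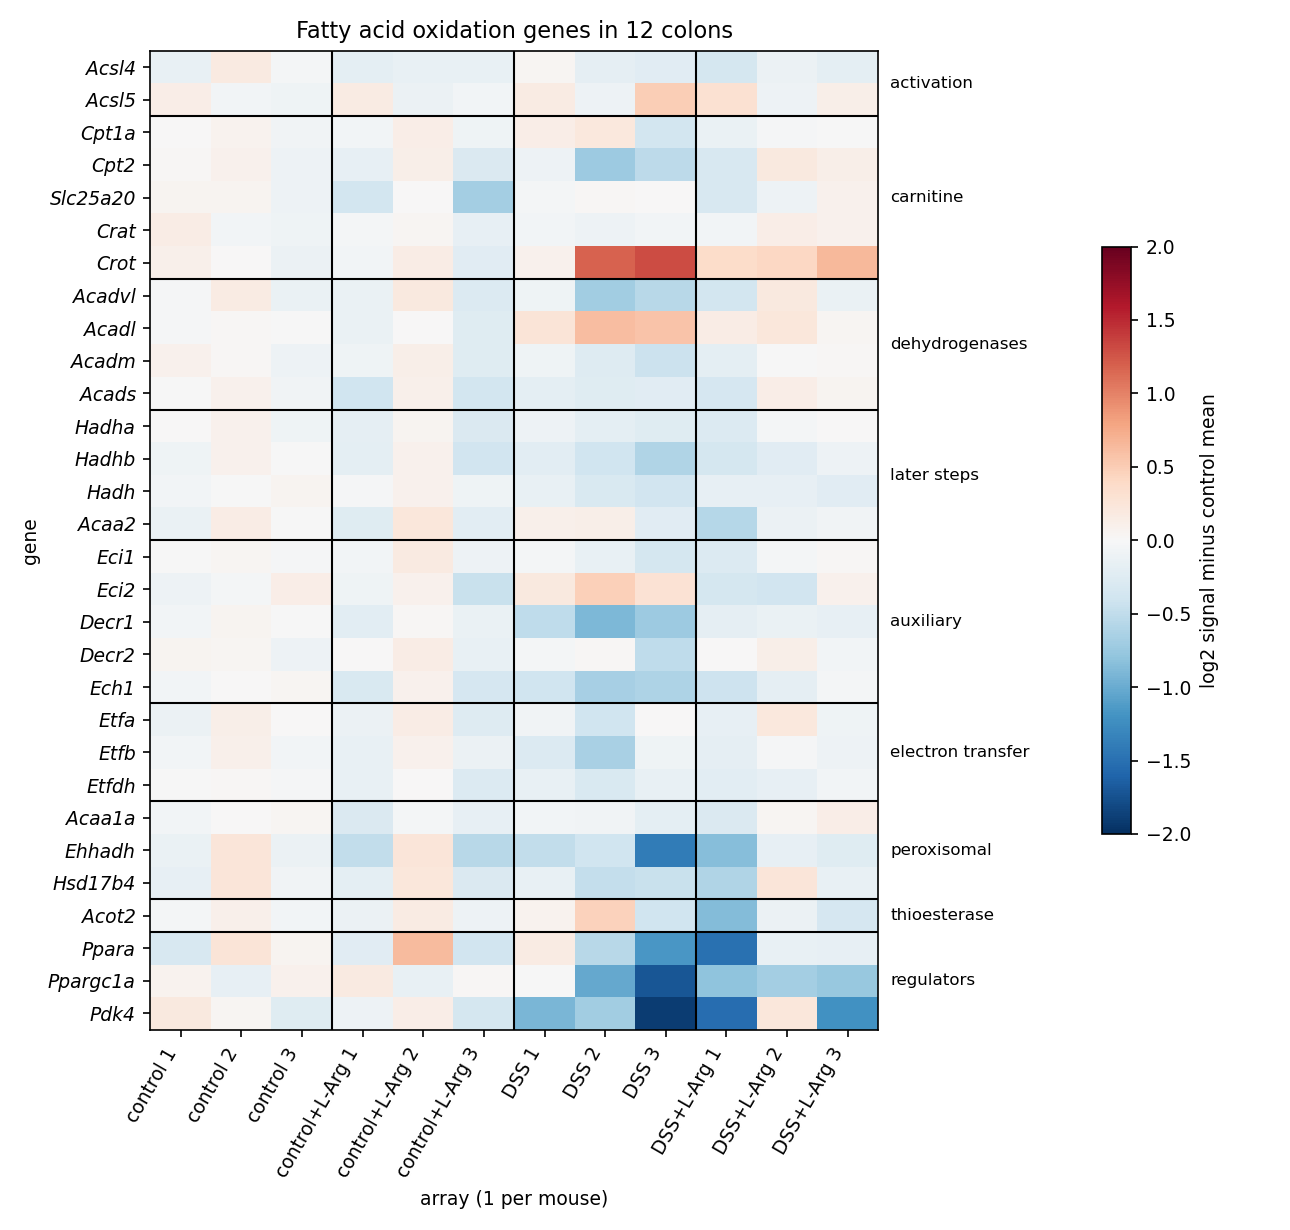
Log2 signal of each of the 30 fatty acid oxidation genes in each of the 12 arrays minus the mean of the 3 control arrays (colour, red above and blue below), ordered by role, with vertical lines between the 4 groups. Crot was highest in DSS 2 and DSS 3, and Ppargc1a and Pdk4 were lowest in DSS 3.

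Among the auxiliary enzymes, Decr1 reduces the conjugated double bonds that polyunsaturated fatty acids leave behind in the mitochondrion. Its log2 signal was 9.62, 9.74 and 9.67 in control 1 to 3, 9.47, 9.70 and 9.55 in control+L-Arg, 9.17, 8.78 and 8.96 in DSS, and 9.50, 9.54 and 9.51 in DSS+L-Arg. All 3 DSS arrays lay below all 9 other arrays. DSS differed from control by -0.71 (SE 0.10, adjusted p = 0.00537 from limma). The difference kept its call when the posterior Hox genes (-0.75, adjusted p = 0.00348 from limma) or the smooth muscle markers (-0.73, adjusted p = 0.0207) entered the fit as a covariate, and with each array left out in turn. It did not pass when only the control and DSS arrays were fitted (adjusted p = 0.0584 from limma).

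Ech1 shifts double bonds into the positions that these auxiliary reactions need, in mitochondria and peroxisomes. It read 11.68, 11.75 and 11.78 in control, 11.43, 11.82 and 11.40 in control+L-Arg, 11.34, 11.07 and 11.12 in DSS, and 11.32, 11.56 and 11.69 in DSS+L-Arg. The DSS arrays lay below all control and all control+L-Arg arrays, and DSS 1 lay just above the lowest DSS+L-Arg array. The difference from control was -0.56 (SE 0.13, adjusted p = 0.0400 from limma). The call was lost without control 1, control 2, control 3, control+L-Arg 1, DSS 2, DSS 3 or DSS+L-Arg 2, each in turn, with adjusted p-values from limma of 0.0541 to 0.143. It was also lost with only the control and DSS arrays in the fit (adjusted p = 0.0717 from limma), with the mouse number as a block (0.0616), with arrays centred on their medians (0.0612) and with the smooth muscle markers as a covariate (-0.62, adjusted p = 0.0940), so it held in 11 of 22 alternative fits. The other auxiliary enzymes did not pass: the isomerase Eci1 and the peroxisomal reductase Decr2 differed by -0.18 each, and the isomerase Eci2 by 0.32 (adjusted p = 0.297 from limma), with its 3 DSS arrays above its 3 control arrays.

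Acadl catalyses the first dehydrogenation of long chains and was the only one of the 30 genes called higher in DSS. It read 10.55, 10.60 and 10.57 in control, 10.45, 10.58 and 10.33 in control+L-Arg, 10.83, 11.20 and 11.15 in DSS, and 10.72, 10.80 and 10.61 in DSS+L-Arg. All 3 DSS arrays lay above all 9 other arrays. The difference from control was 0.48 (SE 0.11, adjusted p = 0.0348 from limma). It was lost without control 1, control 2, control 3, control+L-Arg 1, DSS 2 or DSS 3, each in turn (adjusted p-values of 0.0533 to 0.119 from limma), with only the control and DSS arrays in the fit (adjusted p = 0.120), with array weights (0.39, adjusted p = 0.0550) and with the smooth muscle markers as a covariate (0.40, adjusted p = 0.168), and it held in 13 of 22 alternative fits.

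The other acyl-CoA dehydrogenases had means on the other side of control. The very long-chain enzyme Acadvl differed by -0.44 (SE 0.19), the medium-chain enzyme Acadm by -0.26 (SE 0.12) and the short-chain enzyme Acads by -0.22 (SE 0.15), with adjusted p-values of 0.222, 0.280 and 0.466 from limma. Acads read 11.28, 11.23 and 11.25 in DSS, below all 3 control arrays at 11.46, 11.55 and 11.40, while the groups overlapped for Acadvl and Acadm. None of these 3 passed the test, so they are described here by their values alone.

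Of the genes called in DSS, Acadl and Ech1 have a promoter window in the RefSeq table used here (build GRCm38.p6), and the 250 bases before the annotated start are shown because these genes moved in opposite directions. Both are written in the direction of the gene, with the GC box (GGGCGG on either strand, a site known for Sp1) in capitals. The Acadl stretch lies at chr1:66863310-66863559 on the minus strand and the Ech1 stretch at chr7:28825088-28825337 on the plus strand.
Acadl: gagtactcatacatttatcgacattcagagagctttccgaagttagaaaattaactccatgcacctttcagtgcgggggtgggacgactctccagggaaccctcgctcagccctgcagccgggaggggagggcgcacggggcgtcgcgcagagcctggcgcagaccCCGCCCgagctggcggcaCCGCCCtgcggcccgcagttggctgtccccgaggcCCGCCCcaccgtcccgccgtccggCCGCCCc
Ech1: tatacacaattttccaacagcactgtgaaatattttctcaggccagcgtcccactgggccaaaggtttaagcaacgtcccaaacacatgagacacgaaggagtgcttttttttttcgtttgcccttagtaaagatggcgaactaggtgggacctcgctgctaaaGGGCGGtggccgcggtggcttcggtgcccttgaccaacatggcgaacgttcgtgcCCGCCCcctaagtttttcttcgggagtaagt
The Acadl stretch held 4 GC boxes at a GC content of 68.0%, and the Ech1 stretch held 2 at 51.2%. Of the 30 genes 26 had a window, and 17 of these (65.4%) held a GC box within their 250 bases, against 32.7% of all 32851 windows of that length. The median GC content was 58.8% in the 26 windows and 52.4% in all. The direct repeat of AGGTCA with 1 base between the copies, to which PPARα binds with its partner RXR, was in 0 of the 26 windows and 0.0335% of all, and TCAAGGTCA, the element of estrogen-related receptors, in 0 of the 26 and 0.387% of all. The single site AGGTCA, which is part of both, was in the windows of Acadm, Acadvl and Cpt1a (11.5%) and in 14.0% of all windows. Both strands were searched, and a match to these letters does not show that a factor binds. The 2 longer elements were so rare among all windows that 0 of 26 cannot tell these genes from others. Only exact matches within the 250 bases were counted, so looser or more distant sites were not covered.

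In the carnitine shuttle, Cpt1a and Slc25a20 had means near those of control in DSS, while the mean of Cpt2 was lower without a call. Cpt1a, the enzyme of the outer membrane that couples acyl groups to carnitine, differed by -0.01 (95% interval -0.31 to 0.29), and Slc25a20, the carrier that exchanges acylcarnitine for carnitine, by 0.00 with an interval of -0.34 to 0.34. Cpt2, which returns the acyl group to CoA inside the mitochondrion, read 11.18, 11.25 and 11.06 in control, 11.00, 11.28 and 10.88 in control+L-Arg, 11.06, 10.44 and 10.64 in DSS, and 10.84, 11.36 and 11.28 in DSS+L-Arg. DSS 2 and DSS 3 were the lowest of the 12 arrays for Cpt2, but DSS 1 lay within the control range, and the difference of -0.45 did not pass (SE 0.18, adjusted p = 0.183 from limma). Crat, which moves acetyl groups, differed by -0.07.

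Crot transfers medium chains to carnitine in peroxisomes and had the highest positive difference among the 30 genes. It read 9.74, 9.65 and 9.51 in control, 9.58, 9.78 and 9.40 in control+L-Arg, 9.72, 10.81 and 10.94 in DSS, and 9.99, 10.04 and 10.28 in DSS+L-Arg. DSS 2 and DSS 3 stood well above every other array, while DSS 1 lay within the control range. The difference from control was 0.86 (SE 0.26, adjusted p = 0.0859 from limma), and without DSS 1 it was 1.24 (adjusted p = 0.00106). Crot passed in only this 1 of 22 alternative fits. Across them the difference was as small as 0.54, with adjusted p-values up to 0.3925 from limma. In the fit with array weights, DSS 1 to 3 had weights of 1.38, 0.517 and 0.402, so the omitted array had the largest weight of its group.

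The regulators were lower by their means, with a wide spread among the DSS mice. Ppargc1a, a coactivator of PPARα and of mitochondrial biogenesis, read 10.78, 10.53 and 10.79 in control, 10.88, 10.55 and 10.72 in control+L-Arg, 10.68, 9.67 and 8.99 in DSS, and 9.89, 10.01 and 9.94 in DSS+L-Arg. DSS 2 and DSS 3 lay below all control arrays and DSS 1 lay among them. The difference of -0.92 (SE 0.31) gave an adjusted p of 0.124 from limma, and without DSS 1 it was -1.37 with an adjusted p of 0.00245. No other of the 22 alternative fits called Ppargc1a here. Across them the difference was as small as -0.52, with adjusted p-values up to 0.470 from limma. A dimmer probe set of Ppargc1a, not used in the test, read 9.44, 8.28 and 7.61 in DSS against 9.19, 9.11 and 9.43 in control, again with DSS 1 high.

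Pdk4, a kinase that restrains the entry of pyruvate into the TCA cycle, had the lowest mean difference of the 30 genes. It read 11.30, 11.14 and 10.87 in control, 11.00, 11.24 and 10.76 in control+L-Arg, 10.19, 10.40 and 9.21 in DSS, and 9.58, 11.33 and 9.90 in DSS+L-Arg. The 3 DSS arrays lay below all control and control+L-Arg arrays, whereas DSS+L-Arg 2 was the highest of the 12. The difference of -1.17 (SE 0.41) gave an adjusted p of 0.136 from limma, and 0.0487 without DSS+L-Arg 2, whose spread enters the shared error. Pdk4 passed in no other of the 22 alternative fits, where adjusted p-values reached 0.414 from limma. Ppara, the receptor itself, differed by -0.52 (SE 0.41, adjusted p = 0.551 from limma) and spanned 8.11 to 9.44 in DSS against 8.96 to 9.53 in control.

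**Figure D2:**
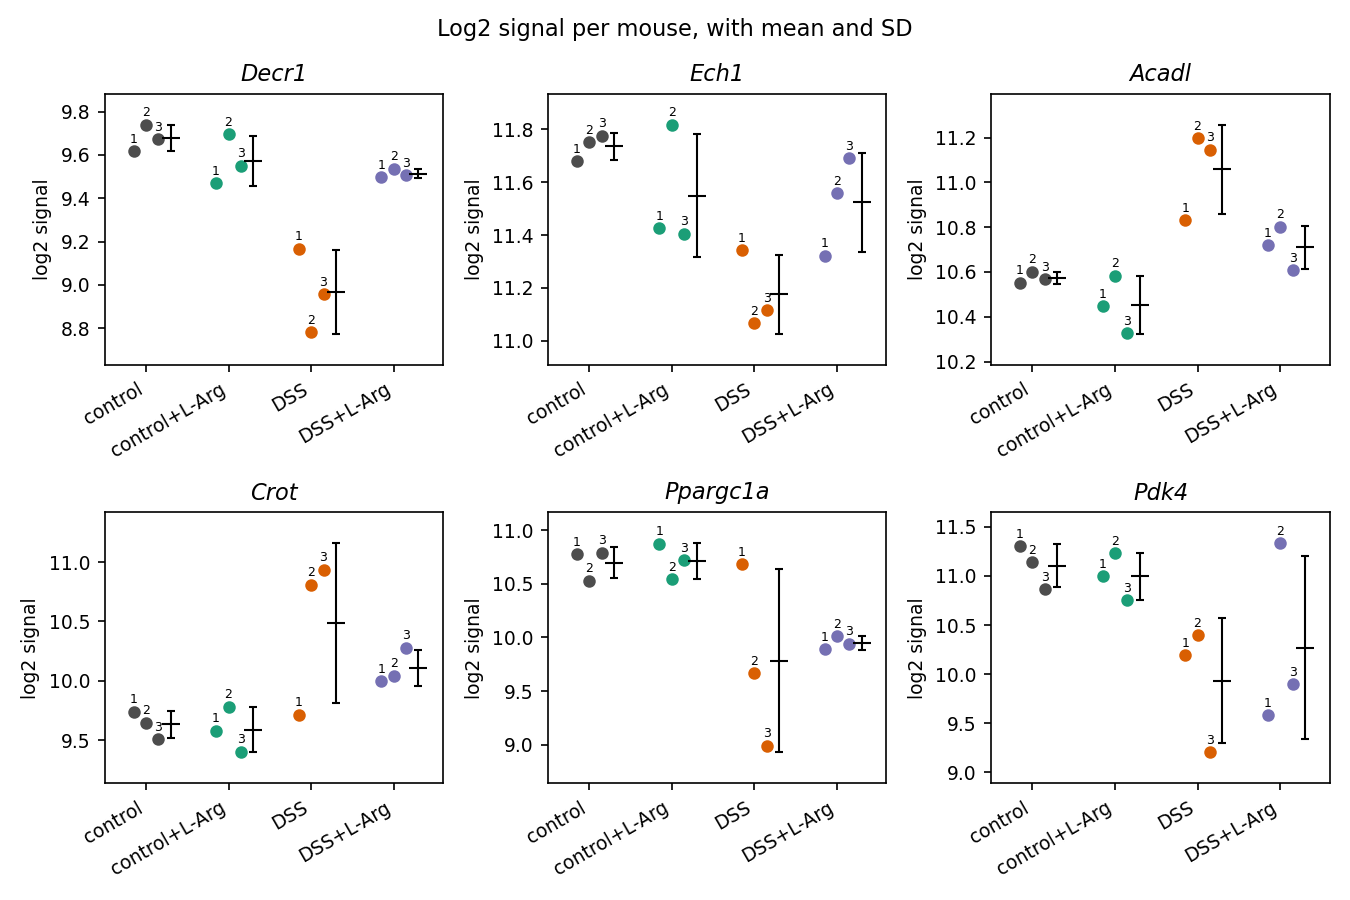
Log2 signal of Decr1, Ech1, Acadl, Crot, Ppargc1a and Pdk4 in each mouse (points, numbered by mouse) in the 4 groups, with the mean and SD of each group (bars) and an axis that does not start at 0. The 3 DSS arrays lie below all others for Decr1 (8.78 to 9.17) and above all others for Acadl (10.83 to 11.20), while DSS 1 stands apart from DSS 2 and DSS 3 for Crot and Ppargc1a.

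The later steps of each round had lower means in DSS for all 4 genes and no call. Hadh, the dehydrogenase for short and medium chains, read 12.91, 12.95 and 13.02 in control and 12.81, 12.65 and 12.57 in DSS, without overlap, and differed by -0.28 (SE 0.09, adjusted p = 0.0887 from limma). The subunits of the mitochondrial trifunctional protein, Hadha and Hadhb, differed by -0.18 and -0.40, also without overlap, and the mitochondrial thiolase Acaa2 by -0.01 with a 95% interval of -0.37 to 0.36. The electron transfer genes Etfa, Etfb and Etfdh, which pass electrons from the dehydrogenases to ubiquinone, differed by -0.16, -0.34 and -0.20.

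Of the 3 peroxisomal enzymes, the bifunctional protein Ehhadh read 9.53, 9.90 and 9.54 in control and 9.16, 9.26 and 8.26 in DSS. Its groups did not overlap, and the difference of -0.76 (SE 0.29) had an adjusted p of 0.174 from limma. Hsd17b4, the other bifunctional enzyme, differed by -0.36 and the thiolase Acaa1a by -0.11. With the posterior Hox genes as a covariate, a fit chosen after seeing the data, Ehhadh (-0.98, adjusted p = 0.0155 from limma), Hadhb (-0.48, adjusted p = 0.0296) and Hsd17b4 (-0.51, adjusted p = 0.0458) also passed. These genes passed in no other alternative fit. The acyl-CoA synthetases Acsl4 and Acsl5 differed by -0.13 and 0.18, and the mitochondrial thioesterase Acot2, which releases fatty acids from CoA, by 0.04. In all, 11 genes lay lower and 2 higher in DSS without overlap between the arrays of the groups, against 14.3% and 10.7% of all genes.

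The second comparison asked whether the colon of DSS mice given L-Arg differed from that of mice given DSS alone. Decr1 rose 1.46-fold, by 0.54 (SE 0.10, adjusted p = 0.0469 from limma), and the other 29 genes did not pass. This is 1 of 30 higher and 0 of 30 lower, against 0.115% and 0.522% of all genes tested. All 3 DSS+L-Arg arrays for Decr1, at 9.50 to 9.54, lay above all 3 DSS arrays and below all 3 control arrays. The call is close to the threshold. It passed in 7 of 22 alternative fits, with differences of 0.45 to 0.64 and adjusted p-values of 0.0155 to 0.225 from limma, and it was lost without DSS 2, without DSS 3, and without any 1 of the 3 DSS+L-Arg arrays or the 3 control arrays, as well as without control+L-Arg 1 or 3. By their means 20 of the 30 genes were higher with L-Arg, against 62.8% of all genes, and the median difference was 0.11 against 0.06. The arrays of the groups did not overlap for 1 gene higher and 2 lower, against 11% and 5.6% of all genes. In the same comparison the median difference was 0.55 for the adipocyte markers (0 of 11 called and 0 of 11 below 0), 0.21 for the smooth muscle markers (0 of 12 called and 1 of 12 below 0), -2.35 for the neutrophil markers (4 of 18 lower) and -1.08 for the monocyte and macrophage markers (5 of 17 lower), and their part was not tested.

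The largest other differences with L-Arg were those of Eci2, Acot2 and Cpt2, and none was called. Eci2 read 8.69, 8.75 and 8.92 in control, 8.70, 8.87 and 8.34 in control+L-Arg, 8.98, 9.26 and 9.07 in DSS, and 8.44, 8.40 and 8.87 in DSS+L-Arg. Its DSS arrays lay above its DSS+L-Arg arrays, with a difference of -0.53 (SE 0.16, adjusted p = 0.187 from limma). Acot2 read 10.20, 10.34 and 10.19 in control, 10.12, 10.41 and 10.14 in control+L-Arg, 10.31, 10.70 and 9.84 in DSS, and 9.37, 10.12 and 9.90 in DSS+L-Arg, where the last 2 groups overlapped. The difference was -0.49 (SE 0.22, adjusted p = 0.362 from limma) for Acot2 and 0.45 (SE 0.18, adjusted p = 0.308) for Cpt2.

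Acadl and Ech1, the other genes called in DSS against control, had means nearer to control with L-Arg, without a call. Acadl differed between DSS+L-Arg and DSS by -0.35 (SE 0.11, adjusted p = 0.212 from limma), and its arrays did not overlap. Ech1 differed by 0.35 (SE 0.13, adjusted p = 0.292 from limma) and overlapped. Crot differed by -0.38 without a call. Without DSS 1 it differed by -0.77 (adjusted p = 0.0232 from limma), the only alternative fit that called Crot in this comparison. Ppargc1a differed by 0.17 with a 95% interval of -0.51 to 0.84. The comparison of DSS with control and the comparison of DSS+L-Arg with DSS share the 3 DSS arrays, so a low or high DSS mean enters both with opposite sign.

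**Figure D3:**
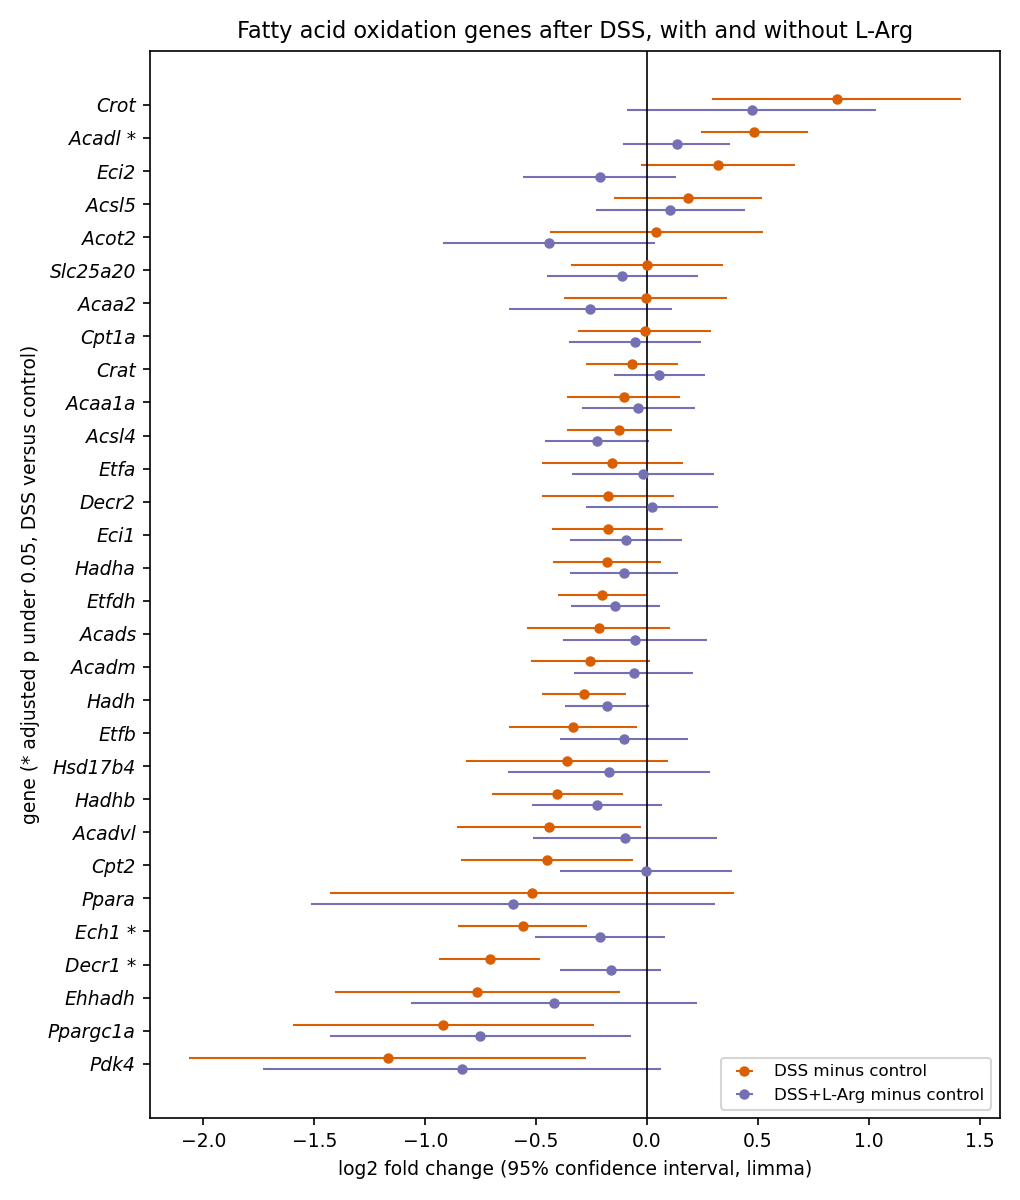
Difference in log2 signal of each of the 30 genes between DSS and control (orange) and between DSS+L-Arg and control (purple), with 95% confidence intervals from limma (bars) and an asterisk for genes called in DSS. Decr1 lay at -0.71 in DSS and at -0.16 in DSS+L-Arg, and Ppargc1a at -0.92 and -0.75.

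Without DSS, L-Arg gave no call. Of the 30 genes 0 passed in either direction, as did 0% of all genes tested, and at an unadjusted p under 0.05, 1 was lower and 0 higher, against 2.11% and 1.33% of all genes. That gene was Slc25a20, which read 11.30, 11.68 and 10.99 in control+L-Arg and 11.72, 11.73 and 11.57 in control, with a difference of -0.35 (SE 0.16, adjusted p = 0.999 from limma). Control+L-Arg 2 lay within the control range for this gene. By their means 26 of the 30 genes were lower, against 53.5% of all genes, and the median difference was -0.08. Control+L-Arg 2 departed from its group here. In it 4 of the 30 genes lay below the control mean, against 27 and 29 in control+L-Arg 1 and 3.

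Comparing DSS+L-Arg with control asked what remained after both treatments, and 0 of 30 genes were called in either direction, against 0.0301% higher and 0.0351% lower of all genes. Ppargc1a had the lowest adjusted p at 0.356 from limma. Its 3 DSS+L-Arg arrays spanned 9.89 to 10.01, below all 3 control arrays, and the difference was -0.75 (SE 0.31). Crot lay above control without overlap, with a difference of 0.47 (SE 0.26), and Decr1 below without overlap at -0.16 (SE 0.10, adjusted p = 0.542 from limma). In all, 7 genes lay lower and 2 higher without overlap, against 9.69% and 13.5% of all genes, and 25 were lower by their means, against 43.8%. The comparisons of DSS, control+L-Arg and DSS+L-Arg with control share the 3 control arrays, so a high control mean enters each. The smooth muscle markers had a median difference of -0.80 here, with 12 of 12 below 0 and 0 called. The median was -0.66 for the posterior Hox genes (7 of 9 below 0) and -0.02 for the adipocyte markers (6 of 11 below 0). It was 0.30 for the neutrophil markers (2 of 18 below 0) and 0.21 for the monocyte and macrophage markers (0 of 17 below 0). None of these markers was called, and their part was not tested.

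Among the mice given L-Arg, those with DSS showed 0 calls among the 30 genes in either direction, against 0.201% higher and 0.105% lower. By their means 17 of the 30 genes were lower in this comparison, with a median difference of -0.04 against 0.04 over all genes. The median was -1.09 for the smooth muscle markers (12 of 12 below 0) and -0.62 for the posterior Hox genes (6 of 9 below 0). It was -0.19 for the adipocyte, 0.44 for the neutrophil and -0.01 for the monocyte and macrophage markers. None of these markers was called, and their part was not tested. Ppargc1a differed by -0.77 (SE 0.31, adjusted p = 0.270 from limma) and Acadl by 0.26 (SE 0.11, adjusted p = 0.295), and neither gene's groups overlapped. When only the control+L-Arg and DSS+L-Arg arrays were fitted, Ppargc1a passed (adjusted p = 0.0317 from limma), and in no other of 22 alternative fits. Setting DSS against control+L-Arg, Decr1 differed by -0.60 (SE 0.10, adjusted p = 0.0150 from limma) and Acadl by 0.61 (SE 0.11, adjusted p = 0.0177), which is 1 of 30 lower and 1 of 30 higher, against 1.69% and 1.99%. The call of Acadl there was lost without control+L-Arg 1 or 3 (adjusted p-values of 0.0700 and 0.0637 from limma). Both calls were lost with only these groups in the fit, at adjusted p-values from limma of 0.133 for Decr1 and 0.137 for Acadl, and with the smooth muscle markers as a covariate, at 0.117 and 0.222. Ech1 did not pass there, at -0.37 (SE 0.13, adjusted p = 0.137 from limma). By their means 21 of the 30 genes were lower in DSS than in control+L-Arg, against 25 of 30 in DSS against control. The median difference was -0.13, against -0.01 over all genes. Without overlap, 4 genes lay lower and 2 higher in DSS than in control+L-Arg, where 11 and 2 did so against control. The excess of lower genes in DSS was thus smaller against control+L-Arg than against control.

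The difference between the effect of L-Arg with DSS and its effect without DSS was tested in the same model. None of the 30 genes was called, against 0.01% of all genes higher and 0.0652% lower, and 3 were higher at an unadjusted p under 0.05, against 6.62%. Decr1 had a difference of 0.65 (SE 0.15, 95% interval 0.33 to 0.97, adjusted p = 0.161 from limma), Ech1 of 0.54 (adjusted p = 0.343) and Cpt2 of 0.56 (adjusted p = 0.455). In a test of any difference among the 4 groups, Decr1 (adjusted p = 0.0169 from limma) and Acadl (adjusted p = 0.0416) passed, which is 2 of 30 against 2.96% of all genes.

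The genes also varied together among mice of the same group. The median of the 30 genes minus the control mean was -0.03, 0.06 and -0.05 in control 1 to 3, -0.14, 0.10 and -0.25 in control+L-Arg, -0.06, -0.25 and -0.36 in DSS, and -0.31, -0.04 and -0.05 in DSS+L-Arg. Over all genes tested this median stayed between -0.04 and 0.04. Control 2 and control+L-Arg 2 were the only arrays with a positive median, and DSS 3 and DSS+L-Arg 1 had the lowest values of all 12.

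Those arrays also differed in the posterior Hox genes. The median of the 9 Hox genes minus the control mean was 0.41, -1.03 and 0.48 in control, 0.82, -0.88 and 0.39 in control+L-Arg, -0.86, -0.57 and -0.13 in DSS, and 0.38, -0.98 and -0.99 in DSS+L-Arg. In control 2, the control array lowest in Hox genes, 19 of the 30 genes were highest of their group, against 32.0% of all genes, and in control+L-Arg 2 it was 27 of 30 against 41.9%. In DSS 1, the DSS array lowest in Hox genes, 16 were highest of the group against 33.4%, and in DSS+L-Arg 3 it was 12 against 29.3%. In DSS+L-Arg 1, the highest in Hox genes of its group, 25 were the lowest of the group, against 41.8%, while in control+L-Arg 1, also the highest in its group, this held for 7 against 37.3%. In control 3 and DSS 3, the highest in Hox genes of theirs, it held for 16 against 37.7% and for 15 against 41.1%. The neutrophil markers, as a median minus the control mean, were 1.86, 1.15 and 4.19 in DSS 1 to 3. The smooth muscle markers, on the same scale, were -0.31, -0.37 and 0.71 in control and 0.29, -0.60 and 1.08 in control+L-Arg. In DSS they were -0.58, -0.85 and -1.32, and in DSS+L-Arg -1.06, -0.23 and -0.91. Their order among the arrays was opposite to that of the 30 genes in control and control+L-Arg, and the same in DSS and DSS+L-Arg. The adipocyte markers, on the same scale, were -0.10, 0.48 and -0.28 in control, -0.30, 0.57 and -0.12 in control+L-Arg, -0.21, -0.48 and -0.70 in DSS, and -0.03, -0.02 and -0.02 in DSS+L-Arg. As for the 30 genes, control 2 and control+L-Arg 2 alone were positive and DSS 3 was the lowest, whereas DSS+L-Arg 1 did not stand apart from its group in these markers. The part of the sampled position and of cell make-up in these differences was not tested.

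**Figure D4:**
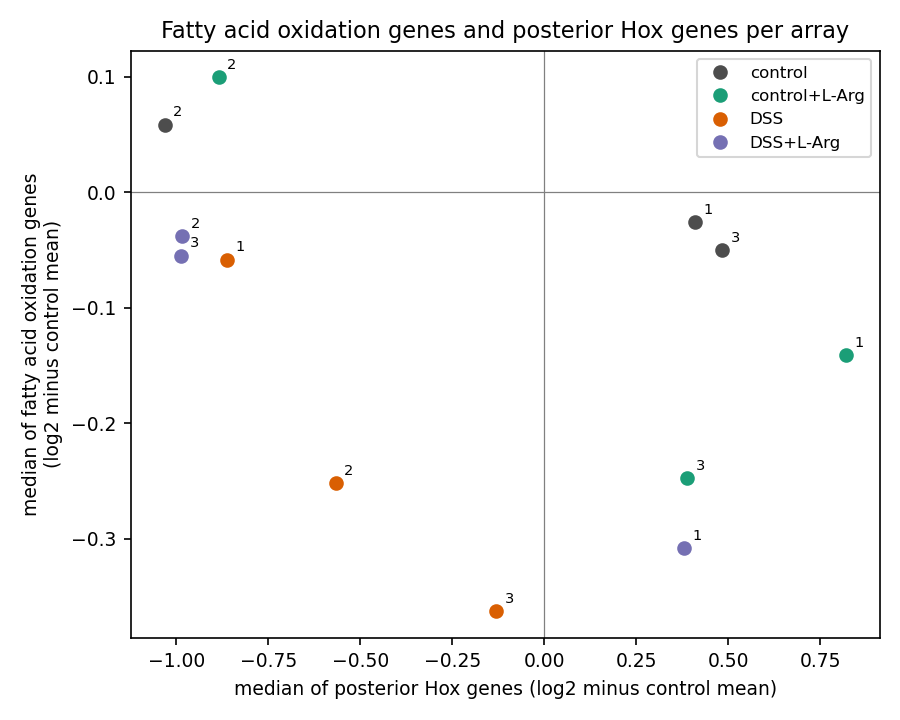
Median of the 30 fatty acid oxidation genes (vertical axis) against the median of 9 posterior Hox genes (horizontal axis) in each of the 12 arrays, both as log2 signal minus the control mean, coloured by group and numbered by mouse. Control 2 and control+L-Arg 2, at -1.03 and -0.88 for the Hox genes, have the only positive medians, and DSS 3 has the lowest at -0.36.

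Genes around the pathway were counted in 8 further lists, to be read against the 2.23% of all genes called lower and 1.8% called higher in DSS against control, a median of -0.01 and 53.1% below 0. The list of further mitochondrial oxidation and thioesterase genes had 4 of 22 lower, with a median of -0.24. These were Pcca (-0.81, SE 0.11, adjusted p = 0.00323 from limma), a subunit of propionyl-CoA carboxylase, Mcee (-0.49) and Mmut (-0.42), which carry propionate carbon on towards succinyl-CoA, and the thioesterase Acot13 (-0.50). In the TCA cycle, 3 of 17 enzymes fell, namely Ogdh (-0.54), Fh1 (-0.46) and Suclg1 (-0.37), with a median of -0.20 and 16 of 17 below 0.

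Each of the other 6 lists had 1 called gene, and 1 of 24 or 1 of 26 lies near the share of all genes (2.23% lower, 1.8% higher). Among the genes for ketone body and butyrate handling, 1 of 7 fell, the mitochondrial thiolase Acat1 (-0.64, SE 0.13, adjusted p = 0.0191 from limma). The list of fatty acid uptake and activation had 1 of 24 lower, the acetyl-CoA synthetase Acss2 (-1.26, SE 0.23, adjusted p = 0.0141 from limma), and the list of peroxisomal genes 1 of 21, the isomerase Eci3 (-0.94). Among PPAR partners and targets, 1 of 26 fell, the coactivator Ppargc1b (-0.65, SE 0.14, adjusted p = 0.0264 from limma), a relative of Ppargc1a. In carnitine synthesis and transport 1 of 9 rose, the transporter Slc22a21 (0.67, SE 0.16, adjusted p = 0.0373 from limma). In the opposite pathway, fatty acid synthesis, 1 of 16 fell, the stearoyl-CoA desaturase Scd1 (-1.64, SE 0.24, adjusted p = 0.00539 from limma).

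In DSS+L-Arg against DSS, 0 genes of these 8 lists were called. The medians were 0.19 for the further mitochondrial genes, with 1 of 22 below 0, 0.13 for the TCA cycle, 0.27 for ketone bodies and butyrate, 0.39 for fatty acid synthesis, and between -0.06 and 0.10 for the other lists, against 0.06 for all genes. Scd1 differed by 1.19 (SE 0.24, adjusted p = 0.0575 from limma) and Pcca by 0.47 (SE 0.11, adjusted p = 0.0936).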

How the data were processed

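Per the submitters' notes on processing, the signals were made in Affymetrix Expression Console 1.1 with RMA, and genome build mm9 is listed. The authors deposited log2 signals, 1 per probe set and array. RMA removes background, gives all arrays the same distribution and combines the probes of a set, so a shift common to most of the transcriptome is lost. Array medians lay between 6.49 and 6.64. Arrays have no read depth. Replicate arrays differed by over 0.01 in at least 95.1% of genes.

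Of 35556 probe sets, 21789 carried 1 gene in the platform table. Probe sets with several genes (1621) or not in that table (12146) were left out, and the brightest probe set was kept for 999 genes with several. This left 19938 genes, and the reference table held the Entrez identifier of 19856.

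The test was limma (version 3.58.1, R 4.3.3). All 12 arrays entered 1 model with a mean for each group (8 residual and 3.37 prior degrees of freedom), and p-values were adjusted by Benjamini-Hochberg over all genes. SAM, named by the study, was not used, since 3 arrays per group allow few label orders. Tables were handled in Python 3.11.15 with pandas 2.3.3 and plots drawn with matplotlib 3.10.9. Every gene of the list is accounted for by role. Genes called in any comparison are given in every array, and so are the 3 with the largest change among those not called in DSS against control and in DSS+L-Arg against DSS. Up to 4 called genes are named per further list. The genes, the lists and the tests were chosen with earlier results of these data known.

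As alternatives, the fit was restricted to the groups compared, the mouse number was added as a block, arrays were centred on their medians or quantile-normalized again, dim genes were left out (all 30 genes exceeded the 30th percentile in at least 3 arrays), probe sets of a gene were averaged, the prior was made trended and robust, arrays were weighted, and each array was left out in turn. Covariates for posterior Hox genes and smooth muscle markers, and a block in a fit of control and control+L-Arg alone, were added after seeing the data. In simulated data of this size for DSS against control, with 200 of 19938 genes changed, limma called 43 of 67 at a 1.5-fold change, 57 of 67 at a 2-fold change and 65 of 66 at a 4-fold change, and it made 8 false calls. Each group has mice 1 to 3 by the labels, without a statement that equal numbers belong together. Of 6 pairs of groups, control and control+L-Arg alone had every same-numbered correlation of deviations over 0.1 (0.205, 0.478 and 0.261).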

Additional observations from a re-analysis of the deposited data

How the results depend on the processing

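The 15 counts of called fatty acid oxidation genes were recomputed in 329 alternative values, of which 267 stayed within 1.5 times the reported count and 62 did not. Counts that were 0 in the main fit make up many of these values and stayed at 0 almost throughout. The 267 therefore say little about the counts above 0, whose changes follow. For the single genes followed through these fits, no direction was reversed. With only the groups compared in the fit, the counts for DSS against control became 0 higher and 0 lower, for DSS+L-Arg against DSS 0 higher, for DSS against control+L-Arg 0 higher and 0 lower, and for DSS+L-Arg against control+L-Arg 1 lower. With the mouse number as a block, DSS against control had 1 lower and DSS+L-Arg against DSS 0 higher. Control and control+L-Arg alone had every same-numbered correlation over 0.1, and the labels do not say whether equal numbers pair mice. A block in a fit of those groups gave 0 calls over all genes. It put 2 of the 30 genes at an unadjusted p under 0.05 in place of 1, with a lowest adjusted p of 0.615 from limma. Centring the arrays left 1 lower in DSS against control and 1 gene that differed among the 4 groups. For DSS+L-Arg against DSS, a further quantile normalization, the trended and robust prior and array weights each gave 0 higher. Array weights gave 0 higher in DSS against control and 1 gene that differed among groups. The Hox covariate gave 5 lower in DSS against control and 3 lower in DSS against control+L-Arg. The smooth muscle covariate gave 0 higher and 1 lower in DSS against control, 0 and 0 in DSS against control+L-Arg, and 0 genes that differed among groups. The fits of single comparisons also held fewer arrays, and the causes of these changes were not tested.

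Leaving out 1 array at a time, the counts ranged from 0 to 2 higher and 1 to 4 lower in DSS against control, 0 to 1 higher and 0 to 1 lower in DSS+L-Arg against DSS, 0 to 2 higher and 1 to 3 lower in DSS against control+L-Arg, and 1 to 4 genes in the test among 4 groups. All other counts stayed at 0. The highest counts for DSS against control came without DSS 1, when Crot was called higher and Hadh and Ppargc1a lower.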

Other observations

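Acot9, a mitochondrial acyl-CoA thioesterase of the list of further mitochondrial genes, was singled out after its values were seen. Among the mice given L-Arg, those with DSS had a log2 signal higher by 1.01 (SE 0.15, adjusted p = 0.0379 from limma), and it was the only gene of the 8 lists around the pathway called in that comparison.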
